A study of Mus musculus with 62 samples.

Results

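Oxtr (the oxytocin receptor), Npr3 (the clearance receptor of the natriuretic peptides), Scg3 (the secretory granule protein secretogranin III) and Pthlh (parathyroid hormone-like hormone) are genes of hormone and peptide signalling, measured here in mouse soleus muscle. They are 4 of the 47643 genes of the deposited table and were chosen by their low levels at 8 weeks in mice carrying the cachectic melanoma, so those week 8 differences are described below with no test. The soleus muscles came from female mice, 2 months old per the labels, that had been injected with melanoma cells of a cachectic kind (CAC) or of a non-cachectic kind (NCAC), or had received a mock injection (Con), and were taken 2, 4, 6 or 8 weeks later. Each of the 12 groups had 5 libraries except CAC at 8 weeks, which had 7, making 62 libraries, 45 of them from weeks 2, 4 and 6. The strain is given as C57BL6/J with each sample and as NCI Ath/nude in the series' own design, a difference that is not settled here and that applies to all groups alike. The melanoma cell lines are not named in the labels, whose extraction text also mentions LLC cells, and CAC and NCAC differ in the cells injected. The labels call the samples biological replicates without saying that each is a separate mouse, so p-values measure the spread between these samples.

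Oxytocin is a peptide hormone best known for uterine contraction and milk ejection, and its receptor, coupled to the G protein Gq, is also present in skeletal muscle. NPR3 binds atrial, B-type and C-type natriuretic peptides and removes them from the circulation, while NPR1 and NPR2 are the guanylyl cyclases through which these peptides signal; osteocrin (musclin, Ostn), a peptide secreted by muscle, binds NPR3. Secretogranin III belongs to the granins and helps load peptide hormones into secretory granules in endocrine and neural cells. PTHLH acts on the receptor PTH1R in bone, cartilage and many other tissues, and is known as a tumour-secreted factor in the hypercalcaemia and wasting of some cancers. What is measured here is its messenger RNA in the muscle samples.

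All 4 are protein-coding genes on the minus strand of mm10 in the GENCODE annotation: Oxtr at chr6:112473683-112489943, Pthlh at chr6:147252101-147264183, Scg3 at chr9:75643189-75684056 and Npr3 at chr15:11839896-11907287. The sequence just before each gene's start is shown because 3 of the genes, Oxtr, Scg3 and Pthlh, had nearly the same profile over the 12 groups and Npr3 another. All 4 were found in the RefSeq promoter table (GRCm38.p6), and windows of 250 bases before the RefSeq start were searched. For Oxtr and Pthlh the annotated GENCODE gene begins further out, and only the 132 and 80 bases outside it are printed, at chr6:112489944-112490075 and chr6:147264184-147264263. Those of Scg3 and Npr3 are whole, at chr9:75684057-75684306 and chr15:11907372-11907621. Each reads 5′ to 3′ along the gene, and capitals mark a motif match.
Oxtr: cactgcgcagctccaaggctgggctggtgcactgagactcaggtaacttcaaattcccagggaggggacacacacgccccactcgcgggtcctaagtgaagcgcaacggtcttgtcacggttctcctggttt
Scg3: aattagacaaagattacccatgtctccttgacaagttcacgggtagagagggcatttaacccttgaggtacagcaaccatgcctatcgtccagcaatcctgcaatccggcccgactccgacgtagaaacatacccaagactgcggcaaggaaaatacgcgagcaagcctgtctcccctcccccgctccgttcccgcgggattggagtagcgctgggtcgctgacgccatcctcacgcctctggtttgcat
Pthlh: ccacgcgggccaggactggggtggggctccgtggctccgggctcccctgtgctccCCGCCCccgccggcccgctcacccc
Npr3: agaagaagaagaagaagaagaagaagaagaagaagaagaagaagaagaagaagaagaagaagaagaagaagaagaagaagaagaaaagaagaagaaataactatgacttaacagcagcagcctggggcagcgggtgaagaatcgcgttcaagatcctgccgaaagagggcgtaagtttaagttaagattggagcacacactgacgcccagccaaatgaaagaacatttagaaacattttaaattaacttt
The window of Pthlh was 75.2% G and C, that of Oxtr 61.6%, that of Scg3 55.6% and that of Npr3 38.8%, against a median of 52.4% over 32851 promoters; the outer end of the Npr3 window is a long run of the triplet gaa. The windows were searched on both strands for the E-box CACGTG (in 6.02% of all promoters), the cAMP response element TGACGTCA (1.55%), the GC box GGGCGG (32.7%), the STAT motif TTCNNNGAA (7.02%), the forkhead motif TGTTTAC (3.17%) and the TATA box written as TATAAA (12.4%). The GC box matched 4 times in the Pthlh window, each on the opposite strand, at -195, -45, -26 and -8 from the start, of which the first is the one in capitals. In the Oxtr window it matched once, at -49 on the opposite strand, next to an E-box at -43 with which it shares no base; both lie in the stretch not printed. No motif matched in the windows of Scg3 and Npr3, and the other motifs matched in none of the 4.

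Levels are TPM, a share of each library's transcripts per length of transcript, and the number of reads behind a value is not known from the table. Differences are given on the scale log2(TPM + 1), which understates the change of genes near or below 1 TPM, Oxtr above all. All 4 genes passed the filter of 1 TPM in at least 5 libraries, together with 13529 genes in all. Npr3 reached 1 TPM in 62 of 62 libraries, Pthlh in 59, Scg3 in 48 and Oxtr in only 17, of which 8 lay in weeks 2 to 6. Of those 8 libraries of Oxtr, 6 were NCAC, 1 was Con and 1 was CAC, so on weeks 2 to 6 Oxtr reached the filter through NCAC, the group where it is high, and its differences from NCAC are read with that limit. In whole muscle, fewer cells of a type and less RNA per cell cannot be told apart. Libraries of week 8 stood apart from the earlier ones in all 3 treatments: the summed TPM of 12 markers of fibro-adipogenic progenitors, the connective tissue stem cells of muscle, went from 1314 to 1624 in Con at 6 weeks to 6610 to 14387 at 8 weeks, and the summed TPM of 10 myofibre markers from 64116 to 74156 to 36214 to 58521. Whether week 8 differs by the time of sampling or by how those muscles or libraries were made cannot be told apart.

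The label of late-falling genes held for Npr3 alone. In CAC muscle, Npr3 had a lower group mean at 8 weeks than at any earlier week. Oxtr, Scg3 and Pthlh in CAC at 8 weeks stood at or above their own week 6 means, while in Con and NCAC their means were several times those of week 6. The plot of levels by library shows both patterns.

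**Figure D1:**
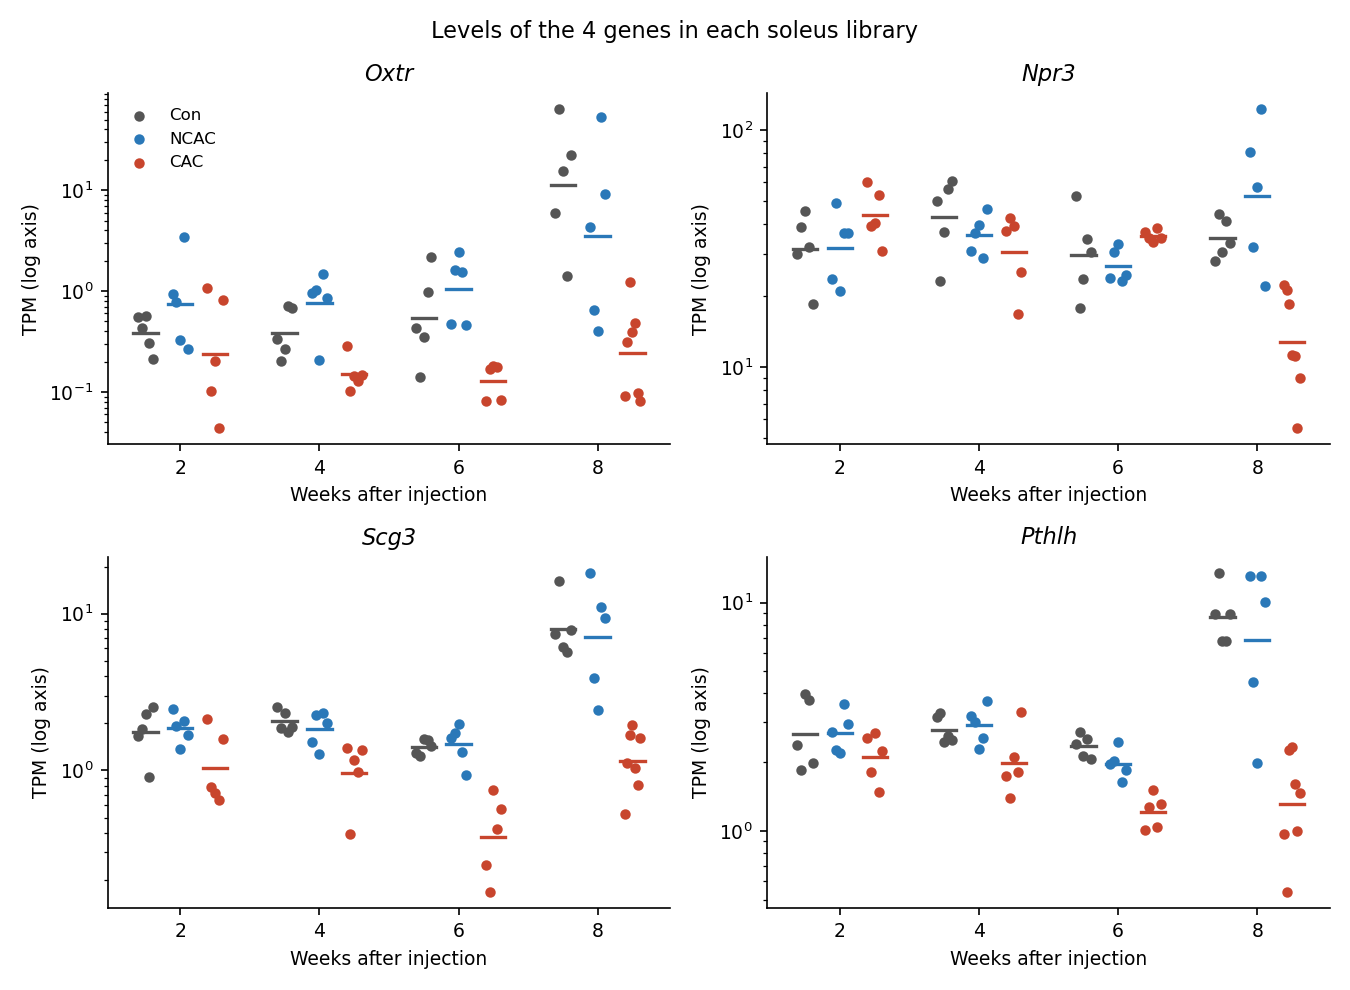
TPM of each gene on a log axis against weeks after injection, with 1 point per library (grey Con, blue NCAC, red CAC; 5 libraries per group, 7 in CAC at 8 weeks) and a bar at the geometric mean. The Con and NCAC means of Oxtr, Scg3 and Pthlh stood higher at 8 weeks than earlier, and those of CAC stayed low, while Npr3 in CAC reached its lowest values, 5.5 to 22.2 TPM, at 8 weeks.

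Scg3 was the only one of the 4 genes with a called difference at 4 weeks as well as at 6. The order of the genes in time was not tested. At 6 weeks its levels in the 5 CAC libraries were 0.25, 0.168, 0.749, 0.425 and 0.57 TPM, in the 5 Con libraries 1.3, 1.23, 1.59, 1.56 and 1.44 TPM, and in the 5 NCAC libraries 1.62, 1.74, 1.99, 1.31 and 0.94 TPM. Every CAC muscle lay below every Con and every NCAC muscle. On the log2(TPM + 1) scale Scg3 was lower in CAC than in Con by a difference of -0.77 (SE 0.16; adjusted p = 0.000511, limma) and than in NCAC by -0.81 (SE 0.16; adjusted p = 0.000211). The genes were chosen by their levels in the last week, not by those of weeks 2 to 6. Earlier results of these data were, however, known when that choice was made. Whether the p-values of weeks 2 to 6 are independent of the choice is therefore not known, for any of the 4 genes. At 4 weeks the CAC values were 1.39, 0.391, 1.16, 0.981 and 1.35 TPM against 2.53, 1.87, 2.34, 1.76 and 1.88 in Con, again without overlap. The difference from Con was -0.60 (SE 0.16; adjusted p = 0.0314, limma) and that from NCAC -0.50 (adjusted p = 0.047), both close to the threshold. Neither held without CAC replicate 2, whose 0.391 TPM was the lowest of that week (adjusted p = 0.217 and 0.246), and leaving out any of several other libraries also ended one or both calls. At 2 weeks CAC stood at 0.648 to 2.14 TPM and Con at 0.912 to 2.54, overlapping, with a difference of -0.41 that did not pass (adjusted p = 0.716).

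Pthlh had a called difference at 6 weeks. The CAC libraries held 1.01, 1.27, 1.51, 1.04 and 1.31 TPM, the Con libraries 2.41, 2.71, 2.12, 2.53 and 2.06 TPM, and the NCAC libraries 1.97, 2.03, 2.44, 1.64 and 1.84 TPM. The highest CAC value was thus below the lowest of either comparison group. Pthlh was lower than in Con by a difference of -0.60 (SE 0.14; adjusted p = 0.0013, limma) and than in NCAC by -0.42 (SE 0.14; adjusted p = 0.0152). At 4 weeks CAC ranged from 1.39 to 3.33 TPM and Con from 2.45 to 3.29; replicate 5 of CAC, the highest, overlapped the controls, and the difference of -0.33 did not pass (adjusted p = 0.182), though without that library it did (-0.46, adjusted p = 0.0283). At 2 weeks the groups overlapped throughout, CAC at 1.48 to 2.69 TPM and Con at 1.85 to 3.97.

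Oxtr was low in CAC muscle and, in weeks 2 to 6, in most Con muscle too. Its means at 2 and 4 weeks were 0.412 and 0.438 TPM in Con and 0.445 and 0.161 TPM in CAC. At 6 weeks its levels were 0.0822, 0.169, 0.182, 0.176 and 0.0823 TPM in CAC, 0.435, 0.142, 0.347, 0.986 and 2.18 in Con, and 0.476, 1.62, 2.42, 1.53 and 0.461 in NCAC. Con replicate 2 fell within the CAC range; NCAC and CAC did not overlap. The difference from NCAC was -0.94 (SE 0.26, adjusted p = 0.00378, limma), while that from Con was -0.58 (SE 0.26) and did not pass (adjusted p = 0.0708). On weeks 2 to 6 Oxtr reached the filter through NCAC, where it is high, so its comparisons with NCAC here carry that limit. With a pseudocount of 0.1 in place of 1 the difference from Con was -1.54 and passed (adjusted p = 0.0288), as it did without Con replicate 2 (adjusted p = 0.0378). At 4 weeks CAC stood at 0.282, 0.103, 0.144, 0.129 and 0.147 TPM and NCAC at 0.957, 1.03, 0.206, 1.49 and 0.849. The difference of -0.68 did not pass (adjusted p = 0.0821), but did with a pseudocount of 0.1 (-1.80, adjusted p = 0.0374) and with week 4 fitted alone (adjusted p = 0.0285). At 2 weeks the CAC values spread from 0.0435 to 1.07 TPM, across the whole range of Con, 0.213 to 0.561.

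Npr3 was by far the highest of the 4 on the per-length TPM scale and had no called difference in weeks 2 to 6. At 6 weeks CAC held 37.1, 34.9, 33.6, 38.6 and 35 TPM, NCAC 23.7, 30.6, 33.1, 23.1 and 24.5, and Con 52.4, 17.8, 23.4, 34.6 and 30.4. Every CAC value was above every NCAC value, whereas Con spread around both. The difference from NCAC was 0.41 (SE 0.26, adjusted p = 0.205, limma). It passed only when the CAC and NCAC libraries of that week were fitted on their own (adjusted p = 0.0226). An exact two-sided permutation test of that gene alone gave an unadjusted p = 0.00794, the smallest that 5 against 5 allows. Any gene without overlap of the groups gets that p, and 11.7% of all genes had CAC above NCAC without overlap. Scg3, Pthlh and Oxtr, lower in CAC than in NCAC, had the same permutation p. From Con it differed by 0.26 (adjusted p = 0.446). At 2 weeks CAC ranged from 30.7 to 60.5 TPM and Con from 18.4 to 45.3, and at 4 weeks from 16.7 to 42.4 and from 23 to 61, with differences of 0.45 and -0.48 that did not pass (adjusted p = 0.766 and 0.309).

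Counted over the 4 genes, 2 were lower in CAC than in Con at 6 weeks (Scg3 and Pthlh), where 5.03% of all tested genes were, and 3 lower than in NCAC (Oxtr, Scg3 and Pthlh), where 6.45% of all were. The groups did not overlap, with CAC lower, for 2 of the 4 against Con (2.31% of all genes) and 3 of the 4 against NCAC (2.21%); CAC above NCAC without overlap, as for Npr3, was seen for 11.7% of all genes. At 4 weeks the count was 1 in each comparison (Scg3), against 0.466% and 1.01% of all genes, and 0.976% of all genes lay lower in CAC than in Con without overlap. At 2 weeks 0 of the 4 passed limma's test in either comparison, against 0% of all genes for Con and 0.54% for NCAC, of which 0.0739% were lower. Scg3 alone of the 4 had an unadjusted p under 0.05, in both comparisons, as did 6.36% of all genes against Con and 16.4% against NCAC. The comparisons with Con and with NCAC share the CAC libraries, so their counts are not independent. Oxtr reached the filter on weeks 2 to 6 through NCAC, the group where it is high. The counts against NCAC that include Oxtr, at 6 weeks and averaged, carry that limit, and only Scg3 and Pthlh are free of it. Averaged over weeks 2, 4 and 6, the difference from Con was -0.59 for Scg3 (SE 0.09; adjusted p = 1.14e-05) and -0.39 for Pthlh (SE 0.08; adjusted p = 0.000333), 2 of 4 genes against 5.15% of all. From NCAC the averaged differences were -0.59 for Scg3 (adjusted p = 8.4e-06), -0.69 for Oxtr (adjusted p = 0.000323) and -0.35 for Pthlh (adjusted p = 0.000768), 3 of 4 genes against 5.16%. Rescaling the libraries by the median of ratios, which moves the median difference of all genes at 6 weeks from 0.16 to 0.01, kept the sign and the side of the threshold for each of the 4 genes at 6 weeks in both comparisons. In one fit over all 62 libraries, which takes in the week 8 libraries, only Scg3 still passed at 6 weeks in either comparison (adjusted p = 0.0562 for Pthlh against Con, and 0.173 for Pthlh and 0.186 for Oxtr against NCAC). The averaged difference of Oxtr from NCAC did not pass in that fit either (adjusted p = 0.0863).

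**Figure D2:**
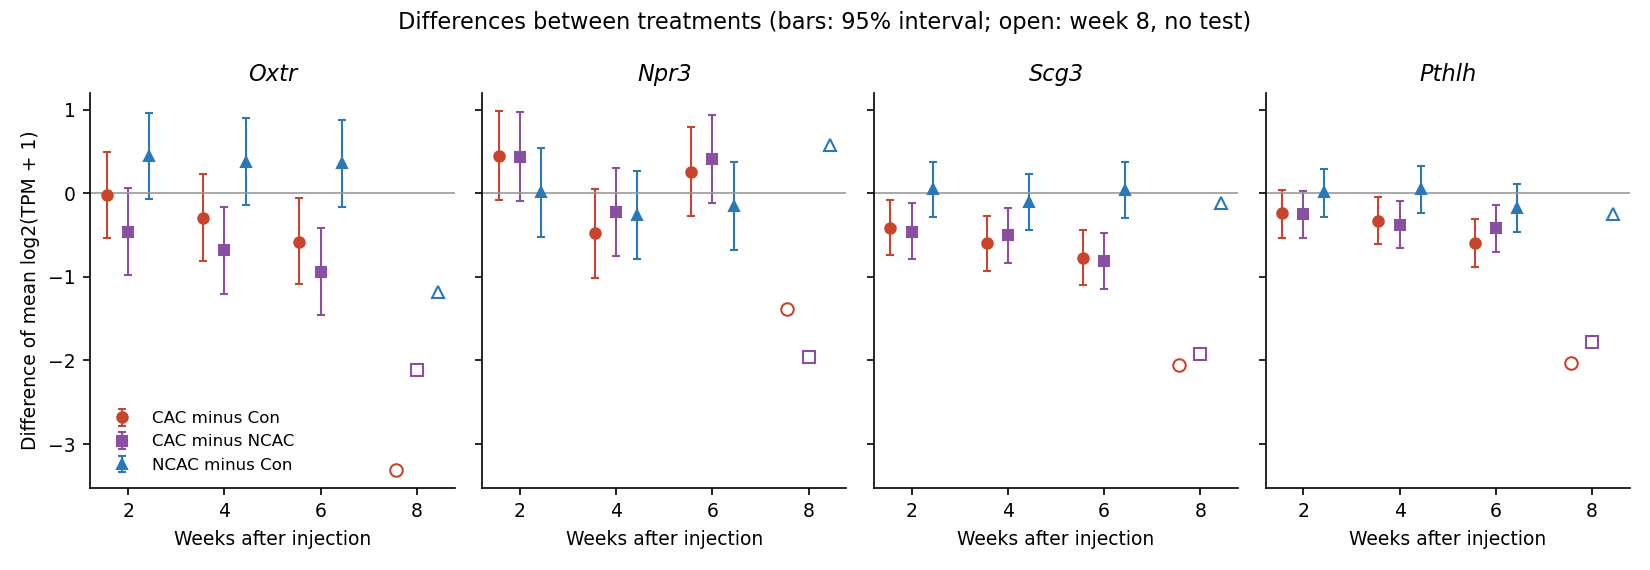
Difference between group means of log2(TPM + 1) for each gene against weeks after injection; circles are CAC minus Con, squares CAC minus NCAC, triangles NCAC minus Con. Bars are 95% intervals over the libraries of weeks 2 to 6, and open marks at 8 weeks carry no interval or test because the genes were chosen there; Scg3 reads -0.77 at 6 weeks and -2.05 at 8 weeks for CAC minus Con.

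The non-cachectic tumour gave no called difference from mock for any of the 4 genes at 2, 4 or 6 weeks, where 0.00739%, 0% and 0% of all genes passed in either direction, and 0 of the 4 had an unadjusted p under 0.05, against 9.05%, 1.18% and 2.52% of all genes. Oxtr had its highest mean in NCAC in each of those weeks, with means of 1.15, 0.906 and 1.30 TPM against 0.412, 0.438 and 0.819 in Con. Its averaged difference of 0.40 (SE 0.15) had an unadjusted p of 0.0109 and an adjusted p of 0.999 by limma. One NCAC library at 2 weeks, replicate 4, held 3.43 TPM, while its fellows held 0.267 to 0.935. For Scg3 and Pthlh the averaged differences between NCAC and Con were 0.00 and -0.04, with 95% intervals of -0.20 to 0.19 and -0.20 to 0.12.

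Within CAC muscle Scg3 and Pthlh were lower at 6 than at 2 weeks, a comparison in which week and any library batch cannot be told apart. Scg3 went from 2.14, 0.783, 0.716, 0.648 and 1.59 TPM at 2 weeks to the values under 0.75 of week 6, a change of -0.57 (SE 0.16; adjusted p = 0.00942, limma). That change was -0.42 and did not pass without CAC replicate 1 of 2 weeks, the highest (adjusted p = 0.0528). Pthlh went from 2.54, 1.81, 2.69, 1.48 and 2.23 TPM to 1.01 to 1.51 TPM, a change of -0.49 (SE 0.14; adjusted p = 0.00894). Neither change passed in one fit of all 62 libraries (adjusted p = 0.118 for Scg3 and 0.147 for Pthlh, limma). Of all genes, 7.97% fell between these weeks in CAC. Oxtr and Npr3 changed by -0.29 and -0.28, neither of which passed (adjusted p = 0.408 and 0.438). In Con and in NCAC 0 of the 4 passed limma's test over the same interval, but neither did any other gene (0% in both), so this count says nothing particular about these 4. Pthlh in NCAC, at -0.32, was the only one with an unadjusted p under 0.05 (0.0287, limma), against 5.47% of all genes in Con and 7.57% in NCAC. Scg3 differed by -0.20 in Con and -0.21 in NCAC, and Pthlh by -0.13 in Con. The difference between the CAC effects of 6 and 2 weeks was itself tested and passed for 0 of the 4, with 0 at an unadjusted p under 0.05 and adjusted p from 0.325 for Pthlh to 0.797 for Npr3. Of all genes 2.23% passed it, 0.517% in the lower direction, and 18.9% had an unadjusted p under 0.05. A growing difference from Con over these weeks was therefore not shown for these genes by limma's interaction test.

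At 8 weeks, the week used to choose the genes, all 4 lay lower in CAC than in Con without overlap, as did 3.05% of all tested genes; limma's call in that direction went to 4.26% of all genes, and nothing is read from it for these 4. Oxtr held 0.0904, 0.311, 1.22, 0.393, 0.486, 0.0974 and 0.0813 TPM in the 7 CAC libraries, and 5.9, 63.1, 15.6, 1.41 and 22.2 TPM in the 5 Con libraries. The NCAC values were 4.35, 0.643, 0.403, 52.9 and 9.19 TPM, and replicates 2 and 3 of NCAC fell inside the CAC range. In TPM, both control groups thus spread far more widely than CAC, with an SD of 24.6 in Con and 22.3 in NCAC against 0.401. The means differed likewise, at 21.6, 13.5 and 0.382 TPM, so in each group the SD was above the mean. On the log2(TPM + 1) scale the CAC minus Con difference of Oxtr was -3.31, and it was -2.74 without Con replicate 2, the highest, and -3.92 without Con replicate 4. Against NCAC it was -2.12, and -1.32 without NCAC replicate 4.

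Scg3 at 8 weeks held a lowest, median and highest value of 0.53, 1.12 and 1.94 TPM in CAC; Con held 7.45, 16.1, 6.15, 5.7 and 7.9 TPM and NCAC 18.2, 3.88, 2.42, 11 and 9.44 TPM. It was the only one of the 4 genes that also separated CAC from NCAC without overlap at that week, which 0.503% of all genes did with CAC lower. The differences were -2.05 from Con and -1.92 from NCAC. Pthlh held 0.54, 1.47 and 2.32 TPM as lowest, median and highest in CAC, 8.92, 13.5, 6.76, 6.81 and 8.92 TPM in Con, and 13.1, 4.48, 1.98, 13.1 and 10.1 TPM in NCAC. NCAC replicate 3 lay within the CAC range, as it did for Oxtr. The differences of Pthlh were -2.03 and -1.78. Npr3 held 22.2, 21.1, 18.5, 11.2, 11.1, 5.5 and 9.01 TPM in CAC, 28.1, 44, 30.5, 41.2 and 33.3 in Con, and 80.3, 32, 57.4, 122 and 22 in NCAC. Its lowest NCAC value stood just under the highest of CAC, and 3 of the 5 NCAC muscles were above all Con muscles. The differences of Npr3 were -1.38 from Con and -1.96 from NCAC.

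Set against week 6 of the same treatment, the genes moved differently. In Con, Scg3 was higher at 8 than at 6 weeks by 1.91, Pthlh by 1.53 and Oxtr by 2.97, the first 2 without overlap, but 44.5% of all tested genes were also higher in Con at 8 weeks without overlap and the median over all genes was 0.29. Scg3 was among the 4.01% of genes with the largest such difference in Con, Pthlh among the top 7.1% and Oxtr among the top 0.599%, while Npr3 at 0.22 stood near the middle. In NCAC the same 3 genes were higher by 1.74, 1.46 and 1.42, Scg3 without overlap, as were 19.5% of all genes, around a median of 0.15. In CAC, Scg3, Pthlh and Oxtr differed by 0.63, 0.10 and 0.24, against a median of 0.18 over all genes, with overlap for each. Npr3 in CAC differed by -1.41, below all week 6 muscles in 7 of 7 libraries; 2.74% of all genes were lower in CAC without overlap, and 0.244% of all genes had a difference as low or lower. These week 8 differences share the values used to choose the genes and carry no test.

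The order of the 12 group means shows the same split. On the mean of log2(TPM + 1), Oxtr, Scg3 and Pthlh were highest in Con and NCAC at 8 weeks and lowest in CAC at 6 weeks, with CAC at 8 weeks 10th, 9th and 11th from the highest. Neighbours in the middle of these orders did not differ beyond their spread: Con at 4 weeks had a mean Pthlh level of 2.80 ± 0.388 TPM (SD, n = 5), for example, and NCAC at 2 weeks one of 2.74 ± 0.576 TPM (SD, n = 5). For Npr3, NCAC at 8 weeks ranked highest at 62.7 ± 40.2 TPM (SD, n = 5) and CAC at 8 weeks lowest at 14.1 ± 6.49 TPM (SD, n = 7). The 10 groups between, from 27 to 45.5 TPM, overlapped with their neighbours.

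Markers of other cell types moved in the same libraries. At 8 weeks the summed TPM of the fibro-adipogenic markers, led by Gsn and Dcn, was 6610 to 14387 in Con, 3735 to 14224 in NCAC and 4513 to 11199 in CAC, and 0 of its 12 genes passed between CAC and Con (median difference -0.52). The 13 macrophage markers, led by Lyz2 and C1qa, summed to 1213 to 2371 in Con and 1030 to 2798 in CAC, and the 13 adipocyte markers, led by Car3 and Fabp4, to 7204 to 22044 and 6905 to 28592; none of either list passed (medians -0.12 and -0.11). Of 12 tenocyte markers, the cells of tendon, 5 were lower in CAC than in Con at 8 weeks, against 4.26% of all genes (median -0.89), with sums of 222 to 526 against 259 to 797. No gene of these 4 lists was at 0 in all libraries. Con replicate 2, with the highest Oxtr, Scg3 and Pthlh of its group, also had the highest fibro-adipogenic and tenocyte sums of Con, 14387 and 797; NCAC replicates 2 and 3, with the lowest Oxtr, Scg3 and Pthlh of theirs, had the lowest sums of NCAC, 3735 and 5068 for fibro-adipogenic and 168 and 175 for tenocyte markers. The adipocyte sums went the same way. Con replicate 2 had the highest of Con, 22044, and NCAC replicates 2 and 3 the lowest of NCAC, 8223 and 13727. The myofibre sums went the opposite way. Con replicate 2 had the lowest of Con, 36214, and NCAC replicates 2 and 3 the highest of NCAC, 60114 and 52578. The pairing is thus not particular to 1 cell type. The CAC libraries of 8 weeks were mixed in the pairing with the fibro-adipogenic sums. Replicate 3, with the lowest fibro-adipogenic sum of CAC (4513), had the highest Oxtr (1.22 TPM) and high Scg3 and Pthlh (1.68 and 2.27 TPM). Replicate 6, with a sum of 10847, had 0.0974, 0.811 and 0.995 TPM of Oxtr, Scg3 and Pthlh. Replicate 4, with the highest sum (11199), had the highest Scg3 and Pthlh of CAC, 1.94 and 2.32 TPM. The macrophage sums differed from this pairing in NCAC, where replicate 2 had the lowest (422) and replicate 3 the highest (3189). At 6 weeks, 7 macrophage and 6 adipocyte markers were higher in CAC than in Con, 2 fibro-adipogenic markers were higher and 1 lower, and 1 tenocyte marker was higher and 3 lower. Over all genes 34.3% were higher and 5.03% lower in that comparison, so the fibro-adipogenic count of higher markers stood below the background. After rescaling, 6 macrophage, 6 adipocyte and 2 fibro-adipogenic markers were higher, where 1912 of all 13529 genes were, in place of 4637. Of 12 endothelial markers, led by Pecam1 and Cdh5, 7 were higher and 1 lower at 6 weeks (3 and 1 after rescaling), and their summed TPM was 309 to 385 in CAC against 256 to 285 in Con, without overlap. Of 10 satellite cell markers, the muscle stem cells, 2 were higher, with sums of 98.6 to 152 against 70.9 to 83.3 TPM, also without overlap. A list of 10 slow fibre markers, led by Tnnc1 and Myl2, summed to 16270 to 57249 TPM over all libraries. No fast fibre list was set beside it. The lowest sum was in CAC at 8 weeks, where 2 of the 10 were lower than in Con. The part of these cell types in the differences of the 4 genes, or of the pathway genes below, was not tested.

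**Figure D3:**
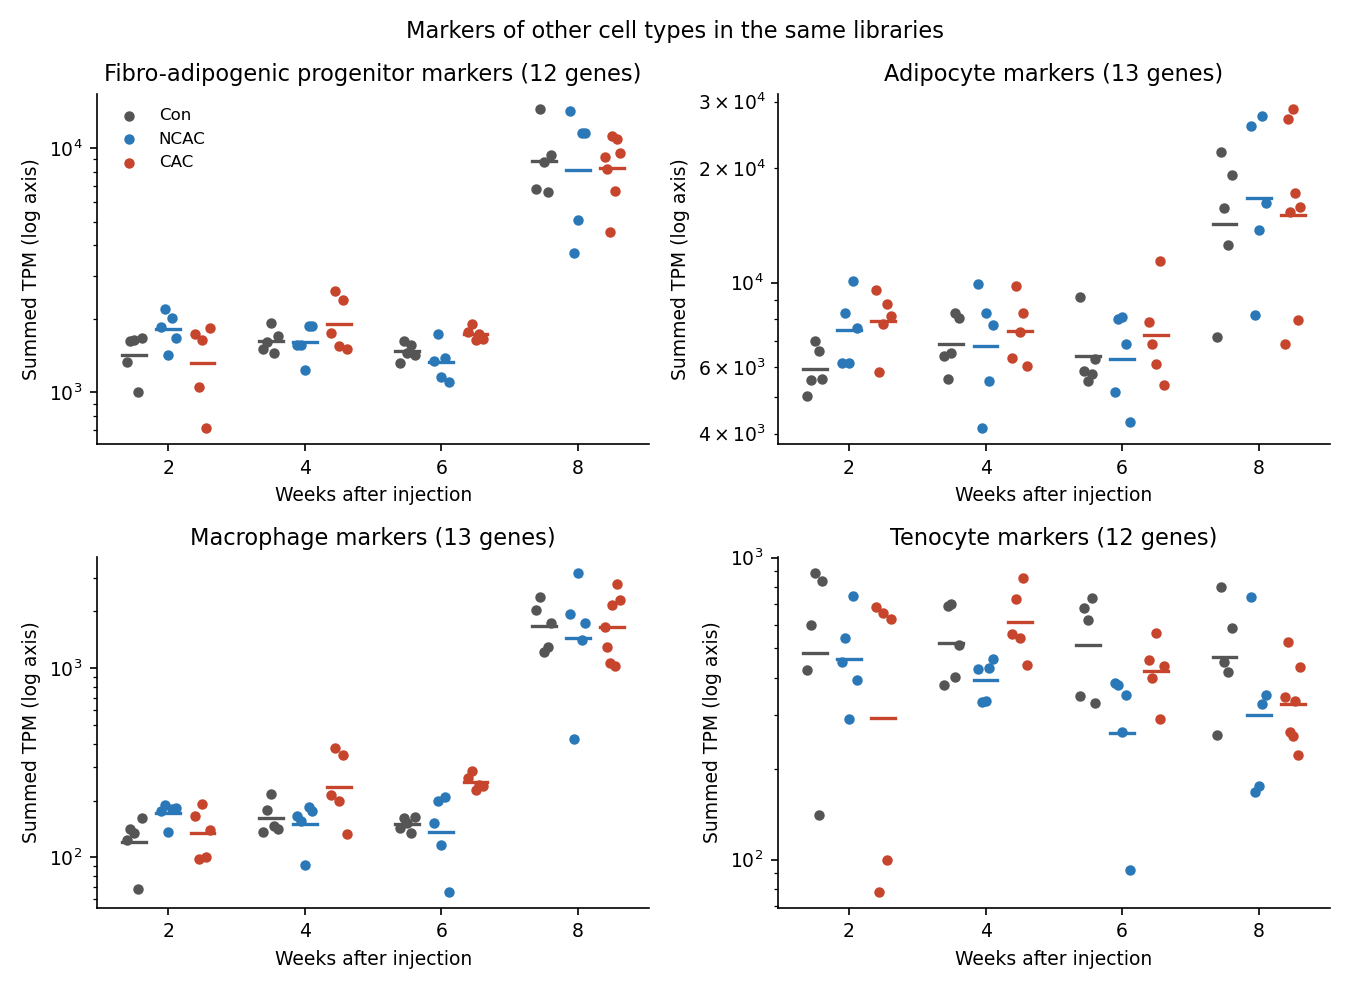
Summed TPM of 4 marker lists on a log axis against weeks after injection, 1 point per library, with a bar at the geometric mean (grey Con, blue NCAC, red CAC). Fibro-adipogenic and macrophage sums stood higher at 8 weeks in all 3 treatments, fibro-adipogenic sums in Con going from 1314 to 1624 at 6 weeks to 6610 to 14387.

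The other genes of the 4 pathways were higher in CAC at 6 weeks more often than lower, as genes were in general. Of 78 other ligands, receptors, processing enzymes and signalling proteins, 50 passed the filter; 21 were higher and 3 lower in CAC than in Con, against 34.3% and 5.03% of all genes, and the same numbers were found against NCAC, where 36.7% and 6.45% of all genes passed. The counts against Con at 6 and 8 weeks include Avpr1a and Casr, which reached the filter only through libraries where they are high. After rescaling, the split was 13 higher and 5 lower against Con and 15 and 5 against NCAC, and over all genes 1912 higher and 1781 lower against Con in place of 4637 and 680. At 8 weeks 6 were higher and 4 lower than in Con (6.31% and 4.26% of all genes) and 10 higher and 2 lower than in NCAC (19.3% and 2.68%), or 2 and 4 after rescaling.

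In the oxytocin and vasopressin list, 9 of 14 tested genes were higher in CAC than in Con at 6 weeks and 0 lower (median 0.33). Of all genes 34.3% were higher and 5.03% lower. After rescaling the list had 7 higher and 0 lower, and 1912 of all 13529 genes were higher. The difference of Oxtr itself, -0.58, did not pass (adjusted p = 0.0708, limma). The largest change was in Arrb1, the beta-arrestin that desensitises G protein-coupled receptors, at 8.72 ± 1.25 TPM (SD, n = 5) in CAC and 3.31 ± 0.269 (SD, n = 5) in Con, a difference of 1.16 (SE 0.14; adjusted p = 9.06e-08, limma), with CAC values of 7.35 to 10.2 and Con values of 3.01 to 3.6 TPM. Plcb4 and Plcb3, phospholipases activated by Gq, differed by 0.74 and 0.37, and Gna11, a Gq-type alpha subunit, by 0.35 (adjusted p = 0.000892, 0.000144 and 0.000556). The vasopressin receptor Avpr1a, which also binds oxytocin, was higher by 0.32 at 6 weeks (adjusted p = 0.00781) and by 0.93 at 8 weeks (adjusted p = 0.0114), at 2.08 ± 0.724 TPM (SD, n = 7) in CAC against 0.576 ± 0.141 (SD, n = 5) in Con. Avpr1a reached 1 TPM in only 10 libraries, 3 of them in weeks 2 to 6 (all CAC) and 6 of the others CAC at 8 weeks, so it passed the filter only through the group where it is high; with no filter on low values it passed at both weeks. In one fit of all 62 libraries the 6 week call was lost (adjusted p = 0.102, limma). The 8 week call of Avpr1a was lost with the replicate number as a block in the fit (adjusted p = 0.0744). At 8 weeks 3 of the 14 were higher and 0 lower, against 6.31% and 4.26% of all genes. Besides Avpr1a these were Plcb4 (0.50, adjusted p = 0.0467, limma, a call lost without any of 9 of the 12 libraries) and Cd38 (1.15, adjusted p = 0.00418), an ectoenzyme needed for oxytocin release in the brain. The ligands Oxt and Avp never exceeded 0.272 and 0.23 TPM and were not tested.

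In the natriuretic peptide list, 5 of 13 were higher and 0 lower at 6 weeks (3 and 1 after rescaling, median 0.19). That is near the 34.3% higher and 5.03% lower of all genes. Npr3 had no called difference. The cyclase receptor Npr1 stood at 14.6 ± 1.38 TPM (SD, n = 5) in CAC and 10.1 ± 0.617 (SD, n = 5) in Con at 6 weeks, a difference of 0.49 (SE 0.10; adjusted p = 0.00043, limma). Npr2, the receptor of C-type natriuretic peptide, differed by 0.06 (adjusted p = 0.439), and at 8 weeks by -0.38 (adjusted p = 0.257). Its ligand gene Nppc was higher by 1.01 at 6 weeks (adjusted p = 0.0373), with CAC values of 1.37 to 12.5 TPM; the call was lost after rescaling (adjusted p = 0.079) and without any of 6 of the 10 libraries. The processing and degrading enzymes Furin, Mme and Ide were higher by 0.39, 0.46 and 0.19, the last with an adjusted p of 0.0384 that was lost without any of 7 of the 10 libraries and a difference of 0.01 after rescaling. Mme did not pass in one fit of all 62 libraries (adjusted p = 0.0809). Ostn, whose product binds NPR3, was lower in CAC and the 1 gene of the list called at 8 weeks, with a difference of -1.14 (SE 0.31; adjusted p = 0.0285), at 49.7 ± 34.8 TPM (SD, n = 7) in CAC with a range of 22.6 to 125 and 96.8 ± 20.4 (SD, n = 5) in Con with a range of 64.1 to 116. One CAC muscle exceeded all Con muscles, and the call did not hold without any of 6 of the 12 libraries (adjusted p up to 0.0711). It was also lost with the replicate number as a block in the fit (adjusted p = 0.0974, limma) and with no filter (0.0559). At 6 weeks Ostn differed by -0.46 (adjusted p = 0.0921; -0.64 and 0.0265 after rescaling). Nppa and Nppb stayed at or under 0.227 and 0.418 TPM.

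In the granin and secretory list, only 7 of 21 genes reached the filter. The granins Chga, Chgb, Scg2, Scg5 and Vgf and the hormone convertases Pcsk1 and Pcsk2 never exceeded 0.821 TPM, below Scg3 in most libraries. Carboxypeptidase E, encoded by Cpe, trims peptide hormone precursors and binds secretogranin III; it was lower in CAC at 6 weeks, at 84.9 ± 9.29 TPM (SD, n = 5) against 122 ± 6.86 (SD, n = 5) in Con, a difference of -0.53 (SE 0.08; adjusted p = 9.68e-06, limma), without overlap. At 8 weeks its difference was again -0.53 (SE 0.16, adjusted p = 0.038, limma), a call lost without any of 10 of the 12 libraries (adjusted p up to 0.0937). The call was also lost with a replicate block (adjusted p = 0.0964), with no filter (0.0563) and with the compared groups alone (0.0562). Rab3a, a vesicle GTPase, was lower in CAC, with a difference of -0.51 at 6 weeks (adjusted p = 0.00471) and Rab27a, another, higher by 1.02 (adjusted p = 0.000266) and at 8 weeks by 1.05 (adjusted p = 0.0322). That week 8 call of Rab27a was lost without any of 8 of the 12 libraries (adjusted p up to 0.0803, limma). It was also lost with no filter (0.0628) and with a replicate block (0.142). The amidating enzyme Pam did not pass at 6 weeks (0.33, adjusted p = 0.0705) or 8 weeks (-0.39, adjusted p = 0.315).

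In the parathyroid hormone and calcitonin list, 6 of 16 were higher and 1 lower at 6 weeks (2 and 2 after rescaling, median 0.29). That is near the 34.3% higher and 5.03% lower of all genes. At 8 weeks 2 were higher and 2 lower, against 6.31% and 4.26% of all genes. Pth1r, the receptor of PTHLH, was higher in CAC by 0.43 from Con at 6 weeks (adjusted p = 0.0356, limma; 0.147 after rescaling, and lost without any of 7 of the 10 libraries) and by 0.74 from NCAC (adjusted p = 0.000551; 0.061 in one fit of all 62 libraries), at 2.57 ± 0.519 TPM (SD, n = 5) in CAC against 1.64 ± 0.3 (SD, n = 5) in Con and 1.14 ± 0.313 (SD, n = 5) in NCAC. At 8 weeks Pth1r, like Pthlh in the control muscles, stood higher, at 9.71 ± 4.91 TPM (SD, n = 5) in Con, but CAC was at 9.07 ± 4.35 (SD, n = 7), a difference of -0.10 (adjusted p = 0.922). Pth itself never exceeded 0.0721 TPM. The only lower gene at 6 weeks was Ramp1, the accessory protein that makes the calcitonin-like receptor a receptor of calcitonin gene-related peptide: 31.7 ± 6.98 TPM (SD, n = 5) in CAC against 66.3 ± 7.05 (SD, n = 5) in Con, a difference of -1.07 (SE 0.19; adjusted p = 4.9e-05). At 8 weeks it was again lower, with a difference of -0.96 (SE 0.22; adjusted p = 0.0114), and both calls held without any single library. Adm, Creb1 and Calcrl were higher at 6 weeks by 0.74, 0.33 and 0.46, the last 2 not after rescaling (adjusted p = 0.0707 and 0.082). At 8 weeks Calcrl and Casr, the calcium-sensing receptor, were higher by 0.73 and 0.47, and Ramp3 was lower, with a difference of -0.47 (adjusted p = 0.0162, 0.0466 and 0.0369). The calls of Casr and Ramp3 were each lost without any of 8 of the 12 libraries (adjusted p up to 0.105 and 0.101), and that of Casr also after rescaling (0.061). Casr reached 1 TPM in only 5 libraries, all of them CAC, and so passed the filter only through the group where it is high.

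**Figure D4:**
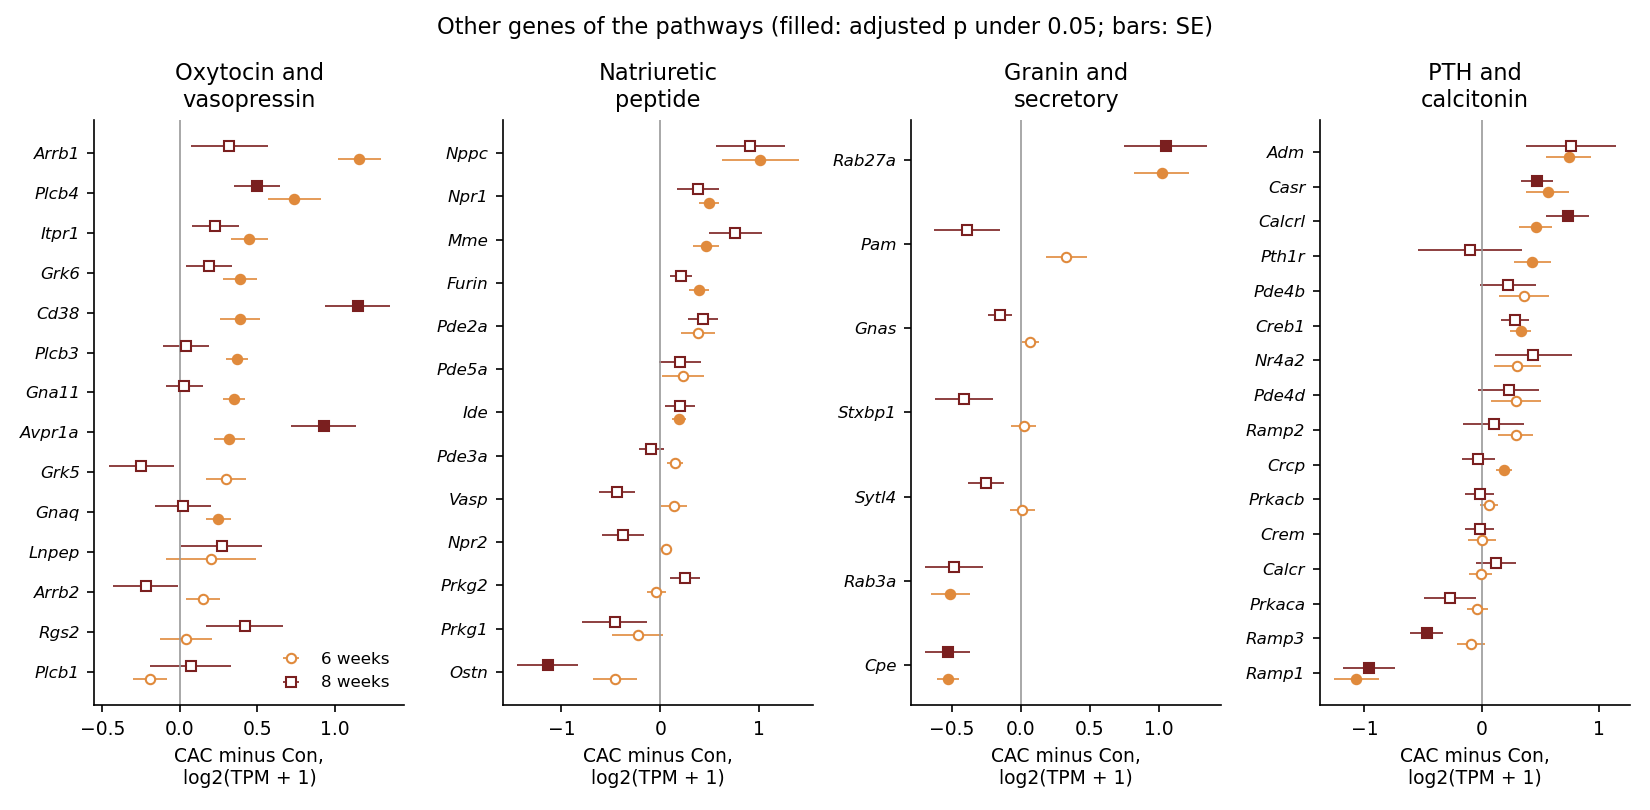
Difference of CAC minus Con on the log2(TPM + 1) scale for the tested genes of the 4 pathway lists, 1 row per gene, at 6 weeks (circles) and 8 weeks (squares). Bars are standard errors and filled marks have an adjusted p under 0.05; Arrb1 at 1.16 lies furthest to the right and Ramp1 at -1.07 is the lowest filled mark at 6 weeks.

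The 4 genes did not form 1 profile. Over the 12 group means of log2(TPM + 1), Scg3 and Pthlh had a Pearson r of 0.98, Oxtr and Scg3 of 0.94 and Oxtr and Pthlh of 0.93, while Npr3 had 0.29 with Oxtr, 0.37 with Scg3 and 0.50 with Pthlh. The week 8 groups dominate these values. Over the 62 libraries, as deviations from each library's own group mean, the first 3 pairs had an r of 0.73, 0.62 and 0.61, and over the 45 libraries of weeks 2 to 6 of 0.26, 0.44 and 0.24. With Npr3 the r over those 45 libraries lay between -0.02 and 0.25. Values of 1 library share its depth and its mixture of cells, and no p is given. Among 12420 ranked genes, those most alike over the group means were Plekha6, Tmem119 and Clybl for Scg3 (r = 0.99, 0.98 and 0.98), Tmem119, Scg3 and Plekha6 for Pthlh (0.99, 0.98 and 0.97), Rnase2a, Fbxw17 and Siglech for Oxtr (0.97, 0.97 and 0.96) and Myl2, Cda and Enho for Npr3 (0.85 each). Myl2 encodes the slow regulatory light chain of myosin and is one of the slow fibre markers. Over the deviations within groups, the closest were Cdk14, Fstl1 and Laptm4a for Scg3 (0.86, 0.85 and 0.85), Dclk1, Zbtb7c and Disp1 for Pthlh (0.85, 0.84 and 0.79), Aff3, Fbxw17 and Spon1 for Oxtr (0.88, 0.88 and 0.84) and Ccser2, Zfp91 and Znrf2 for Npr3 (0.76, 0.68 and 0.67). In weeks 2 to 6 alone they were Col6a2, Col6a1 and Taco1 for Scg3 (0.77, 0.75 and 0.72), genes that include 2 chains of collagen VI. For Npr3 they were Panx1, Ccser2 and Satb1 (0.81, 0.76 and 0.75). Those of Oxtr were Aff3, Plppr3 and Spon1 (0.7, 0.7 and 0.68), and those of Pthlh Fam20a, Ckb and Mgll (0.68, 0.62 and 0.6).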

How the data were processed

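RNA of soleus muscle was sequenced from a stranded mRNA library kit, per the labels' protocols. The authors deposited TPM values per gene symbol for 47643 genes in 62 libraries, with mm10 as the build in the submitters' processing notes; which aligner, quantifier and annotation were used is not given in the sources used here, and counts behind the TPM values are not known. The 4 genes and the gene lists were chosen with earlier results of these data known.

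Values were taken as log2(TPM + 1) and genes with at least 1 TPM in at least 5 libraries were kept (13529). Comparisons at 2, 4 and 6 weeks came from 1 fit of the 45 libraries of those weeks with limma 3.58.1 (trend, R 4.3.3), those at 8 weeks, for pathway and marker genes only, from 1 fit of the 17 libraries of that week. Adjusted p is Benjamini-Hochberg over all tested genes within a comparison, called below 0.05, two-sided; the script was tested on simulated data. Single genes were also tested by exact permutation. The genes named were these 4, fixed ligands, receptors and secretory genes of the 4 pathway lists whatever their result, up to 4 further genes per list with the smallest adjusted p in CAC against Con, and the 3 genes most alike by Pearson r. Replicate numbers recur across groups and were not used to pair libraries; no 2 libraries held identical values. Alternatives were a pseudocount of 0.1, no filter, median-of-ratios rescaling, the compared groups alone, one fit of all 62 libraries, a replicate block, and each library left out; fitting each week alone was chosen after seeing the data.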

Additional observations from a re-analysis of the deposited data

Results flagged for a closer look

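In 5 of the 48 groups of libraries checked (4 genes in 12 groups), 1 library stood far from the others of its group. A chance rate of about 1 in 20 holds only for normally distributed values, which TPM of a low gene need not be. The 4 genes also share their libraries, so that rate is no yardstick for the count. All but 1 of the 5 groups concern Oxtr, whose level is low. Replicate 4 of NCAC at 2 weeks held 3.43 TPM, its fellows 0.267 to 0.935. Replicate 4 of NCAC at 8 weeks held 52.9 TPM against 0.403 to 9.19, and without it the CAC minus NCAC difference of Oxtr was -1.32 in place of -2.12. Replicate 1 of CAC at 4 weeks held 0.282 TPM against 0.103 to 0.147, and replicate 3 of CAC at 8 weeks 1.22 TPM against 0.0813 to 0.486. For Scg3, replicate 2 of Con at 8 weeks held 16.1 TPM against 5.7 to 7.9. That library also had the highest Oxtr and Pthlh of its group.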

How the results depend on the processing

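No result changed sign past the threshold under any alternative run. Of the 4028 values of single genes under an alternative, 3657 stayed on their side of the threshold, 300 lost and 60 gained a call, and 11 week 8 values of Oxtr, Scg3 and Pthlh, which carry no test, moved by more than their spread. With a pseudocount of 0.1 the week 8 differences from Con were -4.93 for Oxtr, -2.69 for Scg3 and -2.63 for Pthlh, and those from NCAC -3.35, -2.52 and -2.30. Counts called among the 4 genes moved as follows. In CAC from 2 to 6 weeks (2 called) the count was 1 with the compared groups alone and 0 in one fit of all 62 libraries. Against Con at 4 weeks (1 called) it was 0 with the compared groups alone, with each week alone, with no filter, with a pseudocount of 0.1 and in one fit of all 62 libraries; against NCAC at 4 weeks (1 called) it was 0 with the compared groups alone, with no filter and in one fit of all 62 libraries. At 6 weeks one fit of all 62 libraries gave 1 against Con in place of 2 and 1 against NCAC in place of 3; that this fit takes in the week 8 libraries is its own construction. With single libraries left out, the counts ranged from 1 to 2 for CAC from 2 to 6 weeks, from 0 to 2 in both comparisons at 4 weeks, and at 6 weeks from 2 to 3 against Con and 3 to 3 against NCAC.

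Counts of called pathway genes were, for CAC against Con at 4 weeks, 2, and 0 with the compared groups alone, each week alone, no filter and one fit of all 62 libraries, and 1 after rescaling and with a pseudocount of 0.1; at 8 weeks 10, and 20 in one fit of all 62 libraries. For CAC against NCAC they were, at 2 weeks, 0, and 1 after rescaling; at 4 weeks 7, and 0 with the compared groups alone and in one fit of all 62 libraries and 2 with each week alone; at 8 weeks 12, and 5 with the compared groups alone, 6 after rescaling and 25 in one fit of all 62 libraries. Left-out libraries gave 0 to 5, 18 to 28 and 4 to 13 against Con at 4, 6 and 8 weeks, and 0 to 12, 20 to 28 and 7 to 17 against NCAC. Over all genes, 5317 were called against Con at 6 weeks, and 3269 in one fit of all 62 libraries and 3475 with the compared groups alone; against NCAC 5842, and 3760 and 3003. At 8 weeks 1430 were called against Con, and 4206 in one fit of all 62 libraries and 920 with the replicate block; against NCAC 2968, and 5837 in that fit, 1594 with the compared groups alone and 1483 after rescaling. The cause of these shifts was not tested.

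The replicate numbers were checked as a possible pairing: same-numbered libraries correlated above 0.1 in 0 to 3 of 5 pairs per comparison (r from -0.67 to 0.48), so the numbers are names only. With the replicate block, 4 pathway genes were called against Con at 8 weeks in place of 10, and no other count among the 4 genes or the pathway genes moved by over 1.5 times. TPM give no read depth, so the precision of the lowest values, those of Oxtr in CAC, is not known.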
